A study of Mus musculus with 16 samples.

Results

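NADPH oxidases are membrane enzymes that make reactive oxygen species. The RNA levels of 5 genes that encode their subunits, Nox4, Cybb, Cyba, Ncf1 and Ncf4, were examined in lung endothelial cells (ECs). They were taken by gene symbol from the 43346 genes of the deposited table, and each of the 5 symbols matched 1 gene. Nox4 is described apart from the other 4, which together make up most of the oxidase of phagocytes. RNA was sequenced from ECs sorted from lungs of FVB mice that had received bleomycin, a drug that injures the lung, or a sham treatment. The 4 groups were Young Sham (2 months old, sham, n = 5), Young Bleo (2 months old, bleomycin, n = 4), Aged Sham (18 months old, sham, n = 3) and Aged Bleo (18 months old, bleomycin, n = 4). Per the study's methods, the animals were Col1a1-GFP transgenic mice, both females and males (the sexes in each group are not stated), in which GFP marks cells that transcribe a collagen gene. The agent or its PBS carrier was given into the trachea, and CD31-positive cells without CD45, EpCAM or GFP were collected about a month later. The sort therefore selected against leukocytes, epithelial cells and collagen-producing cells.

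An NADPH oxidase passes electrons from NADPH across a membrane to oxygen. NOX4, encoded by Nox4, is a catalytic subunit that is constitutively active, releases mainly hydrogen peroxide and is a known oxidase of ECs and fibroblasts. NOX2 (gp91phox), encoded by Cybb, is the catalytic subunit of phagocytes and makes superoxide once cytosolic proteins have joined it. The small membrane protein p22phox, encoded by Cyba, stabilises both. The cytosolic organiser p47phox is encoded by Ncf1, and p40phox, encoded by Ncf4, binds membrane phosphoinositides. The GTPase Rac2 takes part in the active phagocyte complex.

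The deposited coordinates are on mm10. Nox4 (ENSMUSG00000030562) lies at chr7:87246096-87398710 and Cybb (ENSMUSG00000015340) at chrX:9435252-9487771. Cyba (ENSMUSG00000006519) lies at chr8:122424772-122432940, Ncf1 (ENSMUSG00000015950) at chr5:134220053-134229625 and Ncf4 (ENSMUSG00000071715) at chr15:78244801-78262580. All 5 are annotated as protein-coding genes. In the deposited table, Cyba overlaps Gm20388 and Ncf1 overlaps Gtf2ird2, and the strand setting of the counting is not given in the sources used here, so reads of the overlapping genes could not be told apart with certainty.

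The sequences before the starts of the 2 catalytic subunit genes among the members are shown because Nox4 and Cybb moved in opposite directions after bleomycin in the aged animals. They are from RefSeq on GRCm38.p6, 250 bases before the start, 5′ to 3′ on the strand of the gene. The Nox4 window is chr7:87246399-87246648 on the plus strand, and the Cybb window is chrX:9469325-9469574 on the minus strand. Both windows lie inside the gene intervals given above, so the RefSeq starts differ from the outermost starts of those intervals. The motifs searched were GAGGAA and AGGAAG, 2 cores bound by ETS-family factors such as PU.1, on both strands; they overlap each other in the string GAGGAAG. Capitals mark a match to these 2 strings only. Other possible ETS sites were not searched for and stay in lower case.
Nox4: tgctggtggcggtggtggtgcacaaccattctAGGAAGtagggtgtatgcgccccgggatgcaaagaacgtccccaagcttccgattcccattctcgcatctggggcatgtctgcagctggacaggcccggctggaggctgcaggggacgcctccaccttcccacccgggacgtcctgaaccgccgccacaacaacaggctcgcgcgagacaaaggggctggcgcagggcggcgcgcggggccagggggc
Cybb: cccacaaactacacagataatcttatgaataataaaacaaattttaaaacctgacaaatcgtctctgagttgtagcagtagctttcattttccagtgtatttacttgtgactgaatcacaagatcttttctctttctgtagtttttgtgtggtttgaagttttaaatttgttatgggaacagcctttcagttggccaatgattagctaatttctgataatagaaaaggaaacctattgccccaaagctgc
Cybb site: gttttcatTTCCTCatcagaag
The Cybb site of 22 bases lies just after the start, at chrX:9469302-9469323 on the minus strand, and its capitals mark GAGGAA read on the opposite strand. The Nox4 window held AGGAAG. Of the 5 members, 4 had a RefSeq window (Ncf4 had none), and the windows of Cyba and Ncf1 held neither motif. Among all 32851 windows of 300 bases (250 before the start and 50 after it), 28.28% held GAGGAA and 35.35% held AGGAAG, so such matches were common.

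The libraries held 20.9 to 71.0 mega-counts, and the 5 members together had at least 3339 counts in each. The study's methods give ranges of RNA integrity that reached lower in both sham groups than in the bleomycin groups, and lowest in Aged Sham. Its part in the differences was not tested. Levels of one gene are given as normalized counts, which are counts divided by the DESeq2 size factor of the library. Levels of different genes are compared only in FPKM (deposited values in which fragments are divided by gene length and by library total). The EC markers Pecam1 and Cdh5 were high in every library, at 66.6 to 152 FPKM and 67.6 to 111 FPKM. A list of 9 EC markers summed to 2338 to 2594 FPKM in Young Sham and 1545 to 1998 in Young Bleo. The sums were 2033 to 2205 in Aged Sham and 1400 to 2025 in Aged Bleo. Each bleomycin group thus lay below its own sham group, and Aged Sham below Young Sham. Col1a1 was at 0.676 to 2.95 FPKM and Epcam at 0.0466 to 0.798 FPKM. Sftpc, the surfactant protein gene of alveolar type II epithelial cells, was high at 43.4 to 378 FPKM, and the 8 epithelial markers summed to 70.0 to 663 FPKM, with overlap between all 4 groups. The leukocyte gene Ptprc (CD45) was at 0 to 0.517 FPKM, and markers of macrophages were measurable in all 4 groups.

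Nox4 was highest in Aged Sham and was lower after bleomycin in the aged mice. In Young Sham its normalized counts were 67.6, 82.0, 95.4, 95.9 and 163, with a mean of 101 ± 36.8 (SD, n = 5). In Aged Sham they were 249, 278 and 300 (mean 276 ± 25.3, SD, n = 3), so every Aged Sham library lay above every Young Sham library. Young Bleo libraries had 49.9, 52.9, 61.0 and 85.8 normalized counts (mean 62.4 ± 16.3, SD, n = 4). In Aged Bleo the values were 25.8, 25.9, 83.5 and 111 (mean 61.5 ± 42.7, SD, n = 4), a pair of low libraries and a pair within the range of Young Sham. All 4 Aged Bleo libraries lay below the 3 Aged Sham libraries, whereas Young Bleo overlapped Young Sham and Aged Bleo overlapped Young Bleo. The order of the group means was Aged Sham, Young Sham, Young Bleo, Aged Bleo, and the last 2 differed by less than the spread of either. Nox4 was a low transcript throughout, at 0.0280 to 0.314 FPKM. In bulk RNA, fewer cells of a type and less RNA per cell cannot be told apart, here and in all results that follow.

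After bleomycin in aged mice, Cybb moved the other way. In Young Sham it had 0, 9.36, 16.5, 62.3 and 84.1 normalized counts (mean 34.4 ± 36.7, SD, n = 5). The library at 0 counts (Young Sham replicate 25) allows up to 2.93 normalized counts, taking 3 counts as the limit and covering counting error only. Young Bleo libraries had 260, 474, 673 and 1142 (mean 637 ± 376, SD, n = 4), all above Young Sham. Aged Sham libraries had 49.3, 91.9 and 162 (mean 101 ± 56.6, SD, n = 3), which overlapped Young Sham. Aged Bleo libraries had 482, 776, 1548 and 2386 (mean 1298 ± 853, SD, n = 4). Every Aged Bleo library lay above every Aged Sham library, and the 2 bleomycin groups overlapped.

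Set side by side per length, the 2 catalytic subunits among the members changed places after bleomycin. Mean Nox4 was 0.117 ± 0.0409 FPKM in Young Sham and 0.293 ± 0.0259 FPKM in Aged Sham, and mean Cybb was 0.0597 ± 0.0641 and 0.155 ± 0.0859 FPKM there. After bleomycin, mean Nox4 was 0.0743 ± 0.0196 FPKM in Young Bleo and 0.0727 ± 0.0521 FPKM in Aged Bleo, against a mean Cybb of 1.096 ± 0.641 and 2.18 ± 1.43 FPKM. Nox4 made up 70.5% ± 24.8 of the summed FPKM of Nox4 and Cybb in Young Sham (40.1% to 100%, the highest being the library without a Cybb count) and 66.6% ± 14.2 in Aged Sham (51.4% to 79.4%). The share was 7.68% ± 4.27 in Young Bleo (4.84% to 13.9%) and 5.36% ± 5.16 in Aged Bleo (0.738% to 10.6%). All 8 bleomycin libraries thus had a lower share than all 8 sham libraries. These shares are a description and carry no test.

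**Figure D1:**
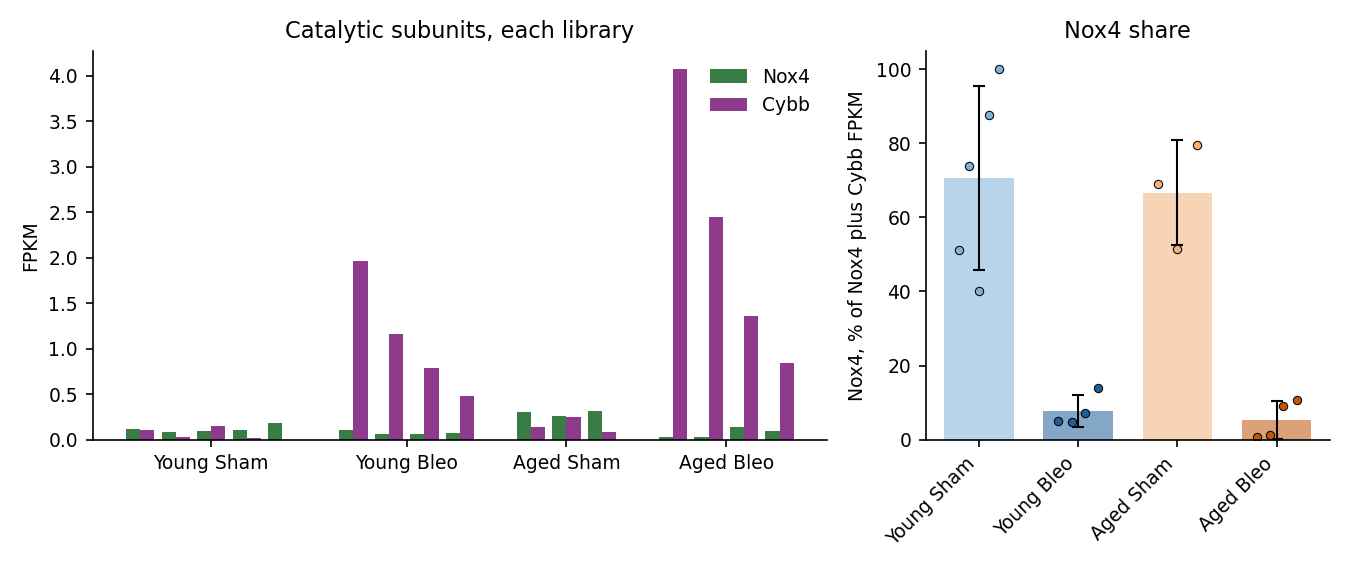
Deposited FPKM of Nox4 and Cybb in each of the 16 libraries (left, bars side by side) and Nox4 as a percent of the sum of both (right; points are libraries, bars group means, whiskers 1 SD). Nox4 took 40.1% to 100% of the sum in sham libraries and 0.738% to 13.9% in bleomycin libraries.

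Cyba, the membrane partner of both catalytic subunits, was by far the most abundant member and overlapped in every pair of groups. Its normalized counts were 5736, 5870, 6617, 7654 and 8648 in Young Sham (mean 6905 ± 1237, SD, n = 5) and 6205, 10228, 11445 and 11508 in Young Bleo (mean 9846 ± 2498, SD, n = 4). Aged Sham libraries had 6911, 10695 and 13184 (mean 10263 ± 3159, SD, n = 3), and Aged Bleo libraries had 7054, 8442, 11089 and 13835 (mean 10105 ± 2998, SD, n = 4). The Young Sham mean was the lowest, and the other 3 means differed by less than their spread. Per length, Cyba was at 75.2 to 168 FPKM, which was 35.3 to 881 times the summed FPKM of Nox4 and Cybb in the same library.

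The cytosolic subunits were low in Young Sham. Ncf1 had 7.02, 21.4, 42.0, 42.5 and 49.2 normalized counts there (mean 32.4 ± 17.6, SD, n = 5) and 61.8, 87.1, 96.2 and 140 in Young Bleo (mean 96.4 ± 32.7, SD, n = 4), with no overlap. In Aged Sham it had 20.0, 74.9 and 145 (mean 80.1 ± 62.9, SD, n = 3) and in Aged Bleo 117, 131, 244 and 331 (mean 206 ± 101, SD, n = 4). Aged Sham spanned the range from Young Sham to Aged Bleo, with Aged Sham replicate 14 the highest of its group.

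Ncf4 was close to absent in Young Sham, at 0, 1.17, 6.59, 10.8 and 14.4 normalized counts (mean 6.57 ± 6.13, SD, n = 5). The Young Sham library at 0 counts (replicate 21) allows up to 2.83 normalized counts on the same limit. Aged Sham libraries had 24.7, 49.96 and 73.8 (mean 49.5 ± 24.6, SD, n = 3), and Young Bleo libraries had 44.05, 76.0, 97.7 and 150 (mean 91.9 ± 44.5, SD, n = 4). Both groups lay wholly above Young Sham. Aged Bleo libraries had 63.6, 202, 282 and 331 (mean 219 ± 117, SD, n = 4), also above every Young Sham library, but the lowest of them lay within the range of Aged Sham.

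**Figure D2:**
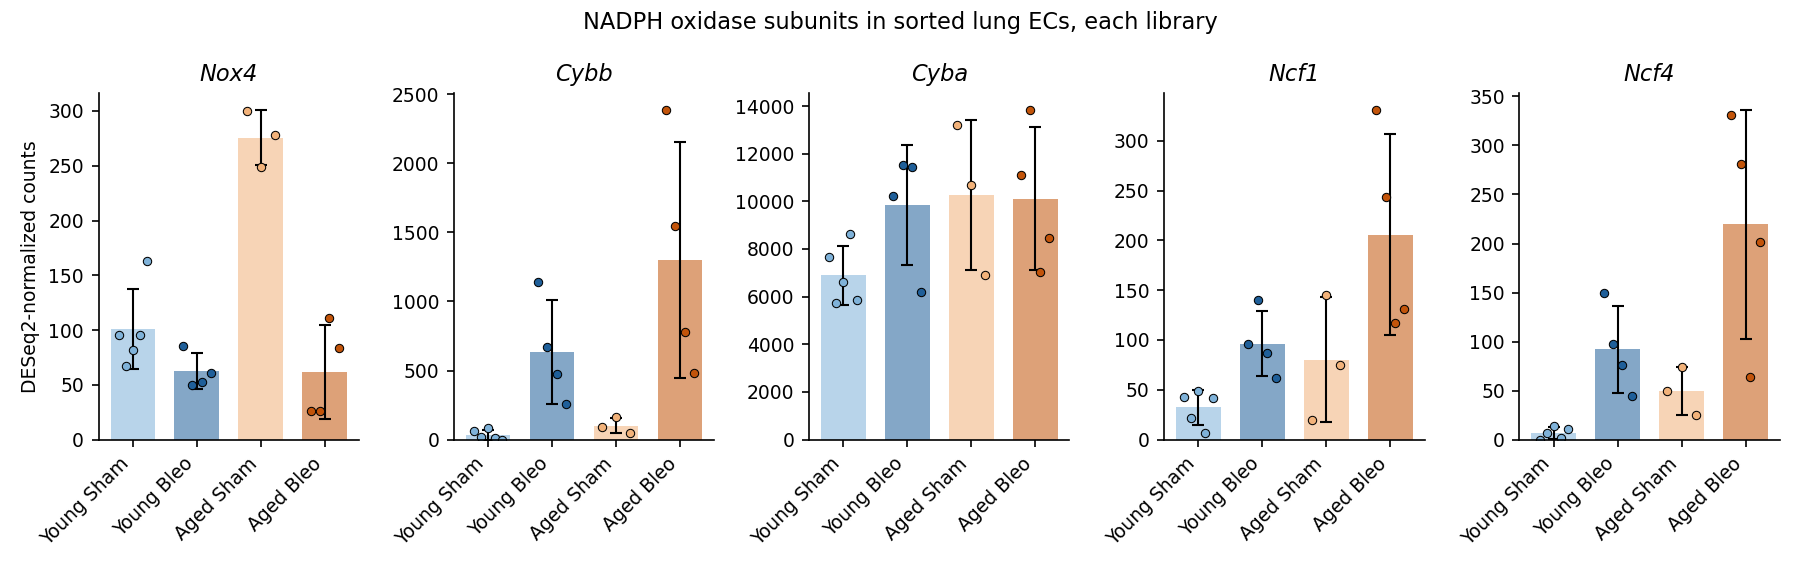
DESeq2-normalized counts of the 5 members in each library (points), with group means (bars) and 1 SD (whiskers); each panel has its own linear axis from 0. Nox4 peaks in Aged Sham (mean 276), whereas Cybb (mean 1298), Ncf1 (mean 206) and Ncf4 (mean 219) peak in Aged Bleo.

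The first comparison asked which subunits differ with age without injury. A gene was called when its DESeq2 p, adjusted over all genes tested by the method of Benjamini and Hochberg, did not exceed 0.05 and its log2 fold change was 0.5 or more in size. Aged Sham against Young Sham, Nox4 was 2.73-fold higher (log2 fold change 1.45, SE 0.460, DESeq2 adjusted p = 0.047). Among the 4 phagocyte subunits Ncf4 alone was called, 7.92-fold higher against its very low level in Young Sham (log2 fold change 2.98, SE 0.743, DESeq2 adjusted p = 0.0046). Thus 2 of 5 members were called higher and 0 lower, where DESeq2 called 2.24% of all genes higher and 1.11% lower. At an unadjusted p of at most 0.05, DESeq2 found 4 of the 5 members and so did edgeR. With the quasi-likelihood test of edgeR, 0 of 5 members were called (0.699% of all genes higher), with an adjusted p of 0.157 for Nox4 and 0.092 for Ncf4; limma voom also called 0. The Nox4 call stood in 6 of 24 alternative analyses (other tests, scalings and filters, and the omission of each library in turn, with an adjusted p of 0.0017 to 0.301 by DESeq2, edgeR or limma). It stood in 4 of the 16 that left out a library, and in none of the 3 that left out an Aged Sham library. The Ncf4 call stood in 18 of 24 (adjusted p 0.0013 to 1) and was lost without Aged Sham replicate 14. Cybb (log2 fold change 1.56, 95% interval -0.37 to 3.50), Ncf1 (1.33, 0.13 to 2.52) and Cyba (0.57, 0.05 to 1.097) were not called by DESeq2 (adjusted p 0.479, 0.268 and 0.283).

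After bleomycin in young mice, Cybb, Ncf4 and Ncf1 were higher and Nox4 was not called. Young Bleo against Young Sham, Cybb was 18.7-fold higher (log2 fold change 4.22, SE 0.905, DESeq2 adjusted p = 0.00011, edgeR adjusted p = 0.0050). Ncf4 was 14.7-fold higher (log2 fold change 3.88, SE 0.683, DESeq2 adjusted p = 1.46e-06, edgeR adjusted p = 0.0066). Ncf1 was 2.99-fold higher by DESeq2 (log2 fold change 1.58, SE 0.558, adjusted p = 0.034), a call that edgeR did not make (adjusted p = 0.087). So 3 of 5 members were called higher and 0 lower, beside 7.57% of all genes higher and 6.35% lower by DESeq2. With edgeR the count was 2 of 5, beside 5.69% of all genes. Over the 24 alternatives the calls of Cybb and Ncf4 each stood in 23 (adjusted p up to 0.086 and 0.179), and the Ncf1 call stood in 15 (adjusted p 0.011 to 0.480). The Ncf1 call was lost without Young Bleo replicates 17, 18 or 19 and without Young Sham replicates 22 or 24. Cyba differed by 0.51 (95% interval 0.03 to 0.99, DESeq2 adjusted p = 0.153) and was called only without Young Bleo replicate 20. The log2 fold change of Nox4 was -0.69 (95% interval -1.53 to 0.15, DESeq2 adjusted p = 0.305).

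In aged mice, bleomycin went with lower Nox4 and with higher Cybb and Ncf4. Aged Bleo against Aged Sham, Nox4 was 4.47-fold lower (log2 fold change -2.16, SE 0.481, DESeq2 adjusted p = 0.00086, edgeR adjusted p = 0.04996). Cybb was 12.9-fold higher (log2 fold change 3.68, SE 1.03, DESeq2 adjusted p = 0.011, edgeR adjusted p = 0.065) and Ncf4 4.44-fold higher (log2 fold change 2.15, SE 0.721, DESeq2 adjusted p = 0.047, edgeR adjusted p = 0.197). DESeq2 thus called 2 of 5 members higher and 1 lower, beside 3.39% of all genes higher and 2.44% lower. With edgeR 0 of 5 were called higher and 1 lower, beside 0.448% and 0.349% of all genes, and limma voom called 1. At an unadjusted p of at most 0.05, DESeq2 found 4 of the 5 members and edgeR 3. The Nox4 call stood in 22 of 24 alternatives, in all 16 of those that left out a library included, and its adjusted p reached 0.114 at most. The Cybb call stood in 17 of 24 (adjusted p up to 0.133) and was lost without Aged Bleo replicate 1 or Aged Sham replicates 13 or 15. The Ncf4 call stood in 11 of 24 (adjusted p 0.0087 to 0.221) and was lost without Aged Bleo replicates 1, 2 or 5, Aged Sham replicates 13 or 15, Young Bleo replicates 18 or 19, or Young Sham replicate 22. Ncf1 differed by 1.35 (95% interval 0.12 to 2.57, DESeq2 adjusted p = 0.204) and was called only without Aged Sham replicate 14. Cyba differed by -0.02 (95% interval -0.57 to 0.53, DESeq2 adjusted p = 0.981).

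Whether the injured groups differed with age was asked directly. Aged Bleo against Young Bleo, DESeq2, edgeR and limma voom each called 0 of 5 members, and no member had an unadjusted p under 0.05 by DESeq2 or edgeR. DESeq2 called 0.616% of all genes higher and 0.41% lower there, and edgeR 0.0382% and 0.00546%. The log2 fold changes were -0.02 for Nox4 (95% interval -0.90 to 0.87), 1.03 for Cybb (-0.83 to 2.88), 0.04 for Cyba (-0.47 to 0.55), 1.09 for Ncf1 (-0.03 to 2.22) and 1.26 for Ncf4 (-0.04 to 2.55). The intervals of Cybb, Ncf1 and Ncf4 held both no difference and log2 differences above 2.

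The response to bleomycin was then compared between the ages in the same model, as the aged log2 fold change minus the young one. For Nox4 this was -1.47 (SE 0.645, 95% interval -2.73 to -0.20), with a DESeq2 adjusted p of 0.481 over all genes tested. For the phagocyte subunits it was -0.54 for Cybb (95% interval -3.22 to 2.14), -0.53 for Cyba (-1.27 to 0.20), -0.23 for Ncf1 (-1.87 to 1.41) and -1.73 for Ncf4 (-3.68 to 0.22). DESeq2, edgeR and limma voom each called 0 of 5 members, with 1 member (Nox4) under an unadjusted p of 0.05 by DESeq2 and 1 by edgeR. DESeq2 called 0.134% of all genes higher and 0.247% lower. With edgeR these shares were 0% and 0.00546%, so edgeR called almost no gene in this comparison. A response of Nox4 that was called in aged and not in young mice was therefore not shown to differ between the ages.

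The Aged Bleo group set against Young Sham held the largest differences of Cybb, Ncf1 and Ncf4 among these comparisons. In this comparison Cybb was 38.0-fold higher (log2 fold change 5.25, SE 0.904, DESeq2 adjusted p = 9.24e-07, edgeR adjusted p = 0.0025). Ncf4 was 35.2-fold higher (log2 fold change 5.14, SE 0.680, DESeq2 adjusted p = 3.14e-11, edgeR adjusted p = 0.0023) and Ncf1 6.38-fold higher (log2 fold change 2.67, SE 0.555, DESeq2 adjusted p = 8.40e-05, edgeR adjusted p = 0.013). Both tools called 3 of 5 members higher, beside 6.58% of all genes by DESeq2 and 4.2% by edgeR, and 0 lower, beside 3.14% by DESeq2 and 1.49% by edgeR. The calls of Cybb and Ncf4 stood in all 24 alternatives (adjusted p up to 0.024 and 0.023), and that of Ncf1 in 23 (up to 0.051). Cyba differed by 0.55 (95% interval 0.07 to 1.03, DESeq2 adjusted p = 0.143). Nox4 differed by -0.71 (95% interval -1.55 to 0.13, DESeq2 adjusted p = 0.327), and it was called lower only without Aged Bleo replicate 3 (log2 fold change -1.17, adjusted p = 0.046). Of the comparisons above, 3 share the Young Sham libraries, and 3 share those of Aged Bleo, so their values are not independent of each other.

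**Figure D3:**
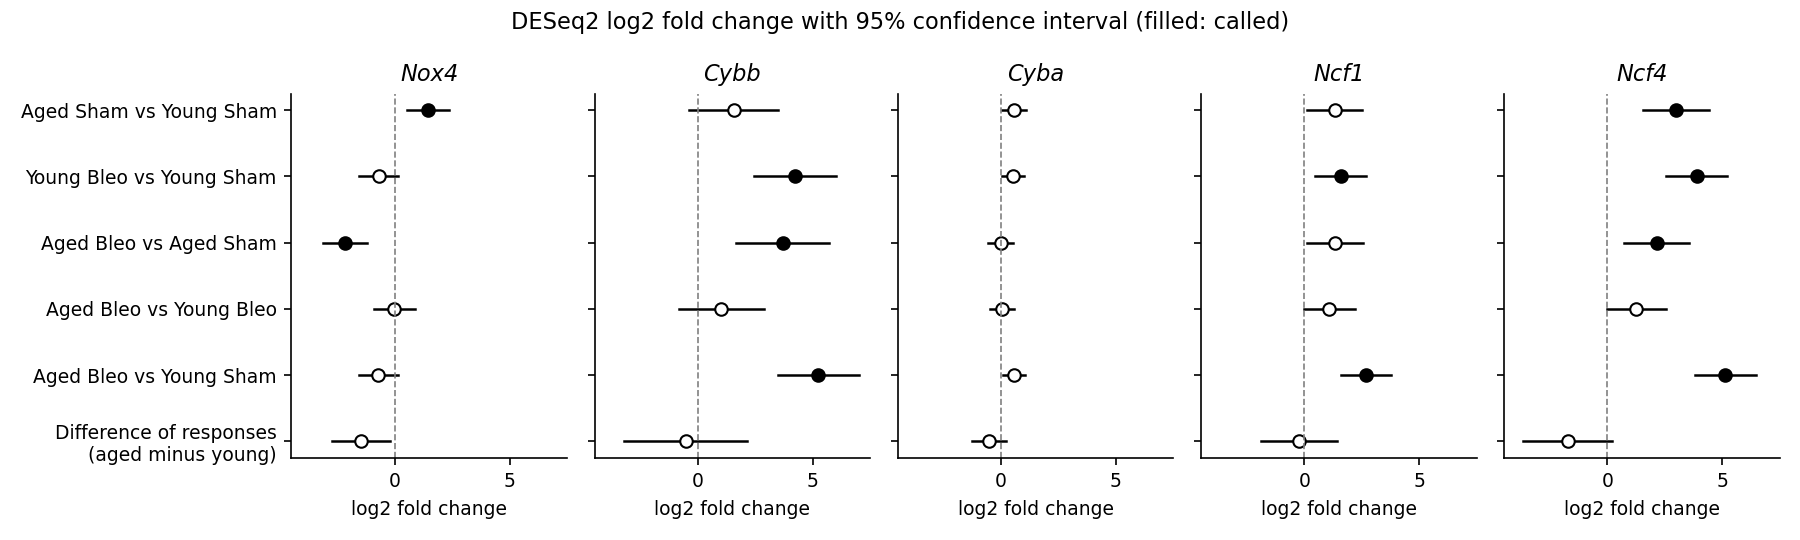
DESeq2 log2 fold change of each member (points) with its 95% interval (lines) in the 5 comparisons between groups and for the aged minus the young response; filled points were called. Nox4 lies at 1.45 for Aged Sham against Young Sham and at -2.16 for Aged Bleo against Aged Sham, whereas no phagocyte subunit was called lower.

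Markers of macrophages and monocytes were higher in the bleomycin groups, as Cybb was. The summed level of a list of 18 such genes was 28.5 to 54.4 FPKM in Young Sham, 174 to 519 in Young Bleo, 72.5 to 236 in Aged Sham and 264 to 1808 in Aged Bleo, and no gene of the list was at 0 throughout a group. By DESeq2, 10 of the 18 were called higher in Young Bleo against Young Sham, 8 in Aged Bleo against Aged Sham, 14 in Aged Bleo against Young Sham and 4 in Aged Sham against Young Sham, and 0 were called lower. Over all genes tested, DESeq2 called 7.57, 3.39, 6.58 and 2.24 percent higher in these comparisons. By edgeR the counts were 10, 4, 13 and 0, beside 5.69, 0.448, 4.2 and 0.699 percent of all genes, the last count with 8 of the 18 at an unadjusted p under 0.05. Lyz2 alone made up 62.9 to 80.2 percent of the sum in each library. Lyz2, the lysozyme of macrophages, ranged from 20.9 to 37.9 FPKM in Young Sham and from 178 to 1265 FPKM in Aged Bleo, and the lysosomal macrophage gene Cd68 from 0.433 to 1.01 and from 7.34 to 62.2 FPKM. Csf1r, the receptor of a macrophage growth factor, differed less, with a mean of 0.566 FPKM in Young Sham, 0.517 in Aged Sham and 1.41 in Aged Bleo. Ptprc was at 0 to 0.0305 FPKM in Young Sham and 0.0648 to 0.517 FPKM in Aged Bleo. The 8 neutrophil markers summed to 0.0807 to 0.773 FPKM in Young Sham and 2.15 to 9.99 FPKM in Aged Bleo, with Camp and Ngp at 0 in all libraries of both groups, and to 0.507 to 3.39 FPKM in Aged Sham. Of these, S100a8 alone was called higher in Aged Sham against Young Sham (log2 fold change 3.67, DESeq2 adjusted p = 0.0078, edgeR adjusted p = 0.102). In Young Bleo the neutrophil sum was 0.451 to 1.34 FPKM. Of 6 tested, DESeq2 called 2 higher in Young Bleo against Young Sham and 2 in Aged Bleo against Young Sham (7.57 and 6.58 percent of all genes). By edgeR these counts were 1 and 2 (5.69 and 4.2 percent). In Aged Bleo against Aged Sham both tools called 0 (3.39 and 0.448 percent higher).

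As a percent of that macrophage sum, Cybb took 0 to 0.290 in Young Sham, 0.224 to 0.403 in Young Bleo, 0.106 to 0.180 in Aged Sham and 0.225 to 0.324 in Aged Bleo. The ratio of Cybb to these markers thus overlapped between the bleomycin groups, and Young Sham overlapped both, but all 3 Aged Sham libraries lay below every library of the bleomycin groups. Against the sum without Lyz2, an alternative chosen after the data were seen, the percents were 0 to 1.13 in Young Sham, 0.748 to 1.38 in Young Bleo, 0.315 to 0.484 in Aged Sham and 0.680 to 1.47 in Aged Bleo, and the Aged Sham libraries again lay below both bleomycin groups. Ncf4 took 0 to 0.182 percent in Young Sham and 0.0762 to 0.382 percent in Aged Bleo, and Ncf1 0.0382 to 0.392 and 0.0495 to 0.136 percent. Within Aged Bleo, the order of the libraries by Cybb was that by the macrophage sum (replicates 1, 2, 3 and 5 from high to low), but Ncf1 and Ncf4 were lower in replicate 3 than in replicate 5. In Young Bleo the sum was highest in replicate 18 and Cybb in replicate 17. Within Aged Bleo, Nox4 was lowest in replicates 1 and 2. Within Aged Sham, replicate 14 had the highest macrophage sum and the highest Cybb, Ncf1 and Ncf4. Cyba differed from the other phagocyte subunits here, as its FPKM was 161 to 264 percent of the macrophage sum in Young Sham and 8.01 to 42.5 percent in Aged Bleo. The part of macrophage RNA in the levels of these members was not tested.

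**Figure D4:**
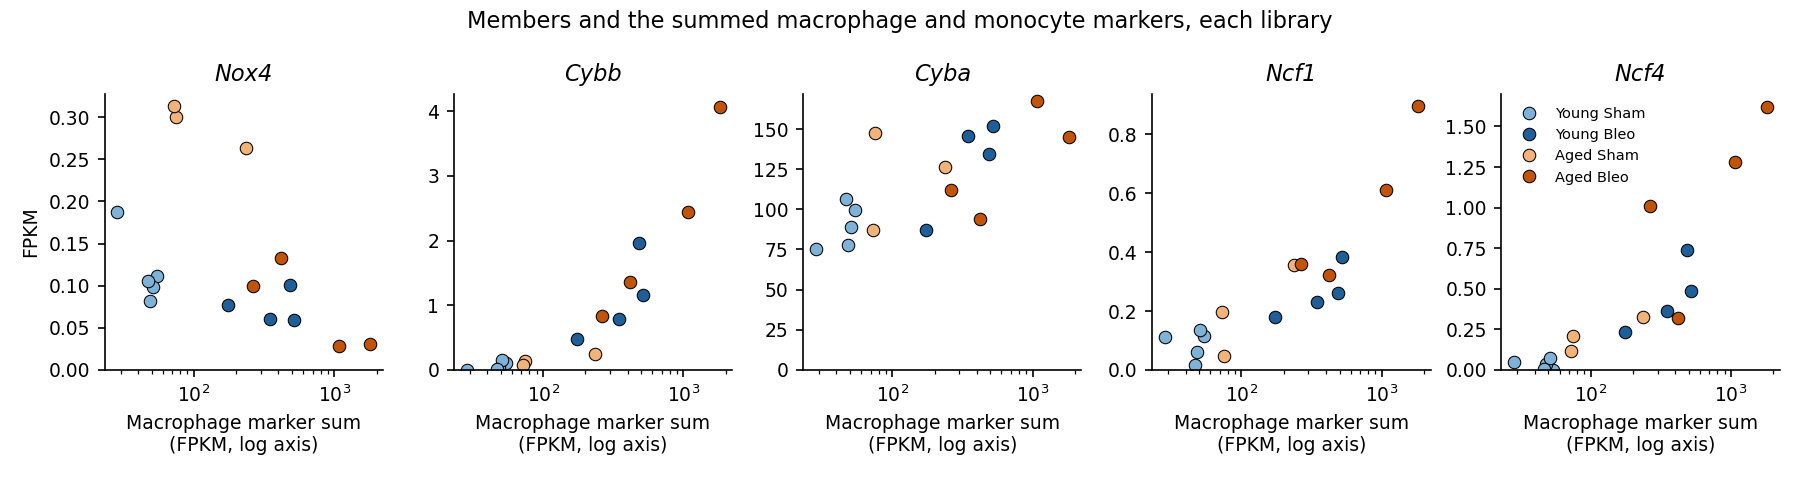
FPKM of each member (linear axis) against the summed FPKM of 18 macrophage and monocyte markers (log axis) in each of the 16 libraries, coloured by group. The Aged Bleo libraries reach a sum of 1808 FPKM and a Cybb of 4.07 FPKM, whereas Nox4 is highest in the Aged Sham libraries at sums of 72.5 to 236 FPKM.

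Some markers of ECs and of other cell types also differed between these groups. Among the 9 EC markers, DESeq2 called 1 higher and 1 lower in Aged Sham against Young Sham (2.24 and 1.11 percent of all genes). It called 2 and 2 in Young Bleo against Young Sham (7.57 and 6.35 percent). In Aged Bleo against Aged Sham it called 1 and 1 (3.39 and 2.44 percent). By edgeR the counts were 0 and 0 (0.699 and 0.164 percent), 2 and 2 (5.69 and 4.09), and 1 and 0 (0.448 and 0.349). The summed level of 4 platelet markers was 255 to 483 FPKM in Young Sham, 581 to 3160 in Aged Sham and 58.9 to 447 in Aged Bleo, and DESeq2 called 3 of the 4 higher in Aged Sham against Young Sham and 3 lower in Aged Bleo against Aged Sham, beside 2.24 and 2.44 percent of all genes. By edgeR 0 were called higher in the former, with 3 at an unadjusted p under 0.05, and 1 lower in the latter (0.699 and 0.349 percent of all genes). The 4 B cell markers summed to 0.292 to 1.66 FPKM in Young Sham, 1.87 to 4.46 in Aged Sham and 0.746 to 2.72 in Aged Bleo, so every Aged Sham sum lay above every Young Sham sum. Among them Cd79a, a chain of the B cell receptor, was called higher in Aged Sham against Young Sham (log2 fold change 1.53, DESeq2 adjusted p = 0.043, edgeR adjusted p = 0.147), and in Aged Bleo against Aged Sham none of the 4 was called by DESeq2 or edgeR (1 by each at an unadjusted p under 0.05, median log2 fold change -1.29). The sums of the T and NK cell list overlapped between all 4 groups, as did those of the epithelial list. The summed level of 6 fibroblast markers was 13.1 to 31.8 FPKM in Young Sham, 14.5 to 25.8 in Aged Sham and 6.83 to 11.7 in Aged Bleo. Of these, Pdgfra, the receptor used to mark lung fibroblasts, was 0.0291 to 0.425 FPKM in Young Sham, 0.774 to 1.63 in Aged Sham and 0.0611 to 0.657 in Aged Bleo. It was called higher in Aged Sham against Young Sham (log2 fold change 2.42, SE 0.693, DESeq2 adjusted p = 0.020, edgeR adjusted p = 0.126), whereas the other 5 were not called, with log2 fold changes of -1.18 for Col3a1, -0.56 for Col1a1, -0.55 for Col1a2, 0.03 for Lum and 0.28 for Dcn (median of the list -0.26). In Aged Bleo against Aged Sham the collagen-binding Dcn alone of the 6 was called, lower (log2 fold change -1.56, SE 0.327, DESeq2 adjusted p = 0.00035, median of the list -1.13). The 8 pericyte and smooth muscle markers summed to 50.6 to 105 FPKM in Young Sham, 28.3 to 49.4 in Aged Sham and 12.9 to 21.5 in Aged Bleo, with 2 called lower by DESeq2 in Aged Sham against Young Sham and 2 in Aged Bleo against Aged Sham, and 0 by edgeR in either (5 and 4 at an unadjusted p under 0.05). Over all genes, DESeq2 called 1.11 and 2.44 percent lower in these comparisons, and edgeR 0.164 and 0.349 percent. Young Bleo had pericyte sums of 18.7 to 48.5 FPKM, all below Young Sham, with 4 of the 8 called lower by DESeq2 and 2 by edgeR (6.35 and 4.09 percent of all genes). The platelet sums there were 100.3 to 231 FPKM, also all below Young Sham, with 0 of 4 called by either tool (3 and 1 at an unadjusted p under 0.05). Every Aged Sham pericyte sum lay below every Young Sham sum, and every Aged Bleo sum below both. The part of any of these cells in the levels of Nox4 and Ncf4 was not tested.

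Other genes of the oxidase complexes were taken from a list of 18, of which DESeq2 tested 16. Nox3 had 0 counts in all libraries and Duox1 was at most 7.99 normalized counts in any library. In Aged Sham against Young Sham 2 of the 16 were called higher and 0 lower, in Young Bleo against Young Sham 0 and 0, in Aged Bleo against Aged Sham 0 and 2, in Aged Bleo against Young Bleo 0 and 0, and in Aged Bleo against Young Sham 1 and 0. Over all genes tested, DESeq2 called 2.24 percent higher and 1.11 percent lower in the first of these comparisons, 7.57 and 6.35 in the second, 3.39 and 2.44 in the third, 0.616 and 0.41 in the fourth and 6.58 and 3.14 in the fifth. In Young Bleo against Young Sham, edgeR and limma voom also called 0, where edgeR called 5.69 and 4.09 percent of all genes higher and lower. Of the list, 6 genes had an unadjusted p under 0.05 by DESeq2 and 4 by edgeR there. DESeq2 called 3 higher there with only the 2 groups compared, and 0 to 1 without single libraries. In Aged Bleo against Young Bleo edgeR and limma voom called 0 as well, where edgeR called 0.0382 and 0.00546 percent of all genes. There 3 genes had such a p by DESeq2 and 2 by edgeR, with 0 to 1 called by DESeq2 without single libraries. The median log2 fold changes of the list were 0.31, -0.01, 0.09, 0.03 and 0.26, beside 0.02, 0.01, 0.01, 0.02 and 0.02 over all genes tested.

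The called genes were Rac2, Arhgdib and Rac1. Rac2 was higher in Aged Sham (log2 fold change 1.86, SE 0.516, DESeq2 adjusted p = 0.015, edgeR adjusted p = 0.099), where its libraries had 111, 641 and 838 normalized counts against 103 to 231 in Young Sham. That call was lost without Aged Sham replicates 13 or 14. In Aged Bleo against Young Sham the log2 fold change of Rac2 was 2.505 (SE 0.473, DESeq2 adjusted p = 1.05e-05, edgeR adjusted p = 0.0073). Arhgdib was higher in Aged Sham against Young Sham (log2 fold change 1.75, SE 0.400, DESeq2 adjusted p = 0.0015, edgeR adjusted p = 0.045) and lower in Aged Bleo against Aged Sham (-1.80, SE 0.418, DESeq2 adjusted p = 0.0015, edgeR adjusted p = 0.051). Both Arhgdib calls were lost without Aged Sham replicate 14, and its mean in Aged Sham was 14112 ± 12568 normalized counts (SD, n = 3). The ubiquitous GTPase Rac1 was lower in Aged Bleo against Aged Sham (log2 fold change -0.54, SE 0.137, DESeq2 adjusted p = 0.0043, edgeR adjusted p = 0.068). That call stood in 17 of 24 alternatives, and was lost without Aged Sham replicate 14 (log2 fold change -0.38) or Aged Bleo replicate 1 (-0.49).

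Enzymes that remove superoxide and peroxide were taken from a list of 17, all tested. DESeq2 called 4 higher and 0 lower in Aged Sham against Young Sham, 3 and 1 in Young Bleo against Young Sham, 0 and 4 in Aged Bleo against Aged Sham, 1 and 0 in Aged Bleo against Young Bleo, and 2 and 0 in Aged Bleo against Young Sham. The shares of all genes called were, in the same order, 2.24 and 1.11, 7.57 and 6.35, 3.39 and 2.44, 0.616 and 0.41, and 6.58 and 3.14 percent. By edgeR the counts were 1 and 0, 1 and 1, 0 and 2, 1 and 0, and 1 and 0. The edgeR shares of all genes were 0.699 and 0.164, 5.69 and 4.09, 0.448 and 0.349, 0.0382 and 0.00546, and 4.2 and 1.49 percent. The median log2 fold changes were 0.34, 0.00, -0.22, -0.12 and -0.04, against the values over all genes given above. In both contrasts in which Nox4 was called, the secreted glutathione peroxidase Gpx3, the membrane lipid peroxidase Gpx4 and the peroxiredoxin Prdx6 were called in the same direction as Nox4.

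Gpx3 had a mean of 24760 ± 2312 normalized counts in Young Sham (n = 5), 7598 ± 1787 in Young Bleo (n = 4), 79927 ± 17601 in Aged Sham (n = 3) and 28627 ± 14468 in Aged Bleo (SD, n = 4). Its log2 fold change was 1.69 with age in sham mice (SE 0.331, DESeq2 adjusted p = 7.70e-05, edgeR adjusted p = 0.019) and -1.70 with bleomycin in young mice (SE 0.304, DESeq2 adjusted p = 2.02e-06, edgeR adjusted p = 0.0046). In aged mice bleomycin gave -1.48 (SE 0.346, DESeq2 adjusted p = 0.0016, edgeR adjusted p = 0.05002), and Aged Bleo was 1.91 above Young Bleo (SE 0.321, DESeq2 adjusted p = 5.02e-06, edgeR adjusted p = 0.048). Extracellular superoxide dismutase, Sod3, was lower in Aged Bleo against Aged Sham (log2 fold change -2.14, SE 0.431, DESeq2 adjusted p = 0.00019, edgeR adjusted p = 0.044). Prdx6 was lower there too (-0.98, SE 0.192, DESeq2 adjusted p = 0.00010, edgeR adjusted p = 0.044), as was Gpx4 (-0.82, SE 0.211, DESeq2 adjusted p = 0.0050, edgeR adjusted p = 0.057). With age in sham mice the called genes besides Gpx3 were Gpx4 (log2 fold change 0.78), the peroxiredoxin Prdx5 (0.68) and Prdx6 (0.59), none of which edgeR called (adjusted p 0.066, 0.103 and 0.137). All 3 of those calls were lost without Aged Sham replicate 14. Of the 16 analyses that left out a library, the Gpx4 call stood in 15, that of Prdx5 in 11 and that of Prdx6 in 8. Omission of Aged Sham replicate 14 also ended the call of Gpx4 in Aged Bleo against Aged Sham. In young mice bleomycin went with higher Gpx1, a cytosolic peroxidase (0.66), Prdx5 (0.66) and the thioredoxin reductase Txnrd1 (0.90), of which edgeR called Prdx5 (adjusted p = 0.023) and not the other two (0.073 and 0.067). The calls of Gpx1 and Txnrd1 each stood in 9 of those 16 analyses, and that of Prdx5 in all 16. Prdx5 (0.66) and Txnrd1 (0.88) were also called in Aged Bleo against Young Sham, of which edgeR called Prdx5 (adjusted p = 0.033) and not Txnrd1 (0.095). Of 24 alternatives, the Prdx5 call stood in 20 (14 of the 16 that left out a library, the exceptions being Aged Bleo replicates 1 and 2), and the Txnrd1 call in 11 (7 of those 16).

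**Figure D5:**
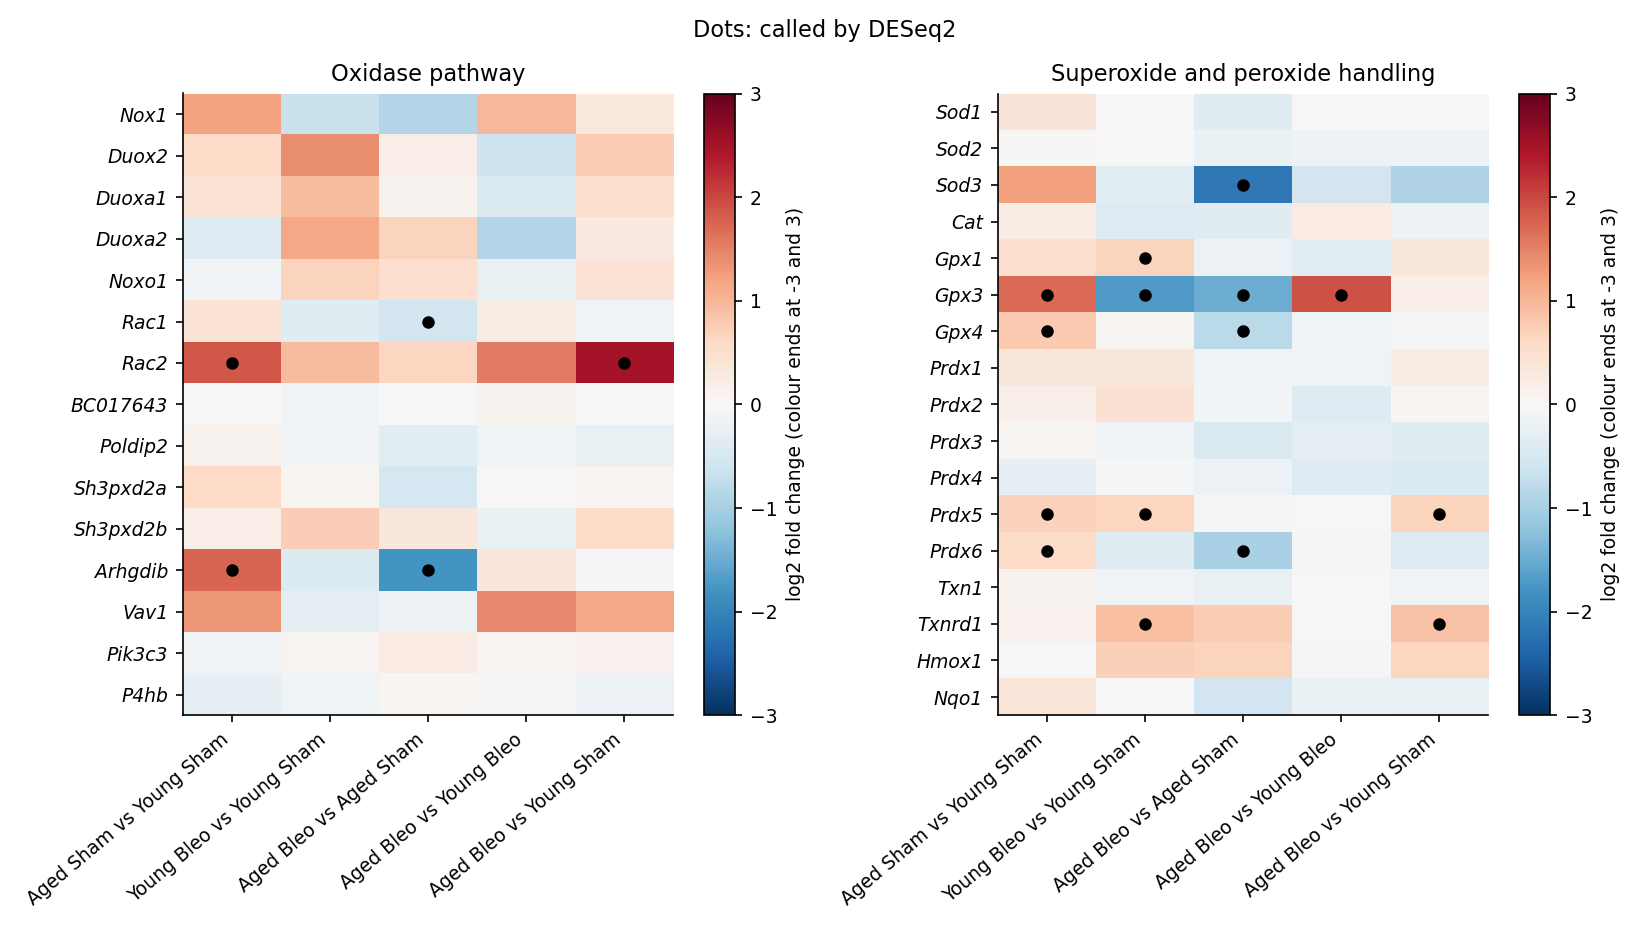
DESeq2 log2 fold changes of the oxidase pathway genes (left) and of the superoxide and peroxide enzymes (right) in the 5 comparisons between groups, as colour from -3 to 3, with dots where DESeq2 called a gene. Noxa1, with a mean of 5.12 normalized counts, was left out of the map; Rac2 is called in 2 comparisons and Gpx3 in 4.

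The genes whose pattern was most like each member were found by Pearson correlation of log2(normalized count + 1) over the 16 libraries, among 13774 genes with a mean of at least 50. The points share group, library and depth, so the values are descriptions. Nox4 was closest to Wnt2 (r = 0.915), Ms4a4d (0.901), Ogn (0.900), Dpep1 (0.898) and Inmt (0.897). Cybb was closest to Ccl6 (r = 0.968), Syngr1 (0.962), Chil3 (0.937), Gpnmb (0.937) and Spi1 (0.935), which encodes PU.1. Cyba was closest to Tpt1 (r = 0.952), Trappc6a, Ptms, Atpif1 and Gm24245 (0.9405), Ncf1 to Tnfsf9 (0.937), Trem2, Il13ra1, Dram1 and Mpeg1 (0.917), and Ncf4 to Oas2 (0.959), Gstt3, Slfn2, Dcun1d3 and Rgs1 (0.912).

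Among the members themselves, r was 0.754 between Cybb and Ncf1, 0.761 between Cybb and Ncf4 and 0.796 between Ncf1 and Ncf4, and Cyba reached 0.597 with Cybb. Nox4 had negative values with all 4 phagocyte subunits, from -0.529 with Cybb to -0.2295 with Cyba. After the group means were subtracted, r was 0.290 between Cybb and Ncf1, 0.013 between Cybb and Ncf4 and 0.401 between Ncf1 and Ncf4. The value for Cybb and Ncf4 pools all 4 groups, with Young Sham libraries at or near 0 counts. In Young Bleo and in Aged Sham the 2 genes ranked the libraries in the same order, but not in Young Sham or Aged Bleo. Nox4 stayed negative with Cybb, at -0.495. Within groups the genes closest to Nox4 were Arrdc2 (r = 0.867), Ms4a4d (0.862), Olfml1 (0.860), Tmed4 (0.852) and Gfpt2 (0.841), so Ms4a4d was on both lists. Ccl6 (0.917) stayed the closest gene to Cybb within groups, Trappc6a (0.954) was again among the 5 closest to Cyba after Selm (0.965), and Tnfsf9 (0.879) among those closest to Ncf1 after Aspm (0.904). Ncf4 was closest to Rasgrf2 (0.903) within groups and shared no gene between its 2 lists.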

How the data were processed

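The 16 libraries were grouped by the age and treatment in their labels. The authors aligned reads with STAR 2.5.2b to mm10 and counted reads per gene with featureCounts of Subread; the deposited table gives whole-number counts, FPKM values scaled by gene length and library total, and the gene length. The annotation release, strand setting and handling of multimapping reads are not given in the sources used here. The labels name a SMART-Seq v4 and Nextera kit, the study's methods a TruSeq poly(A) kit. Counts were tested with DESeq2 1.42.0 (Wald test, 1 model with 4 groups over all 16 libraries, unshrunken fold changes), with edgeR 4.0.16 quasi-likelihood tests beside each call and limma 3.58.1 as an alternative, in R 4.3.3. Following the thresholds of the study, a call needed a p adjusted by Benjamini and Hochberg over all genes tested that did not exceed 0.05, and a log2 fold change of 0.5 or more in size. The test scripts were tested on simulated data. Intervals are 95% Wald intervals. The share of all genes under an unadjusted p of 0.05 was not counted, so counts at that p stand without it. Alternatives were TMM size factors, a filter of 10 counts in 3 libraries, no outlier filter, only the groups compared, limma on log2(FPKM + 0.1) and log2(FPKM + 1), and the omission of each library. No pair of replicates agreed within sampling noise, and each library counted as 1 sample. The labels do not say whether a library is 1 animal; the paper says that RNA came from lungs also used for its chromatin assay, whose points it gives as individual mice. Libraries were taken as separate animals on that basis, and the p-values measure the spread between these libraries. The members, the gene lists and the named genes (every listed gene called in a comparison, the 5 genes most like each member and the defining markers) were chosen with earlier results of these data known, and the lists are no independent support. One gene of the oxidase list is not reported here and was left out of its counts.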

Additional observations from a re-analysis of the deposited data

How the results depend on the processing

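No called fold change changed sign in its 744 alternative values. Of 1644 alternative values in all, counts of calls and Nox4 shares included, 1393 were labelled the same, 236 weaker and 15 stronger. For a fold change, weaker meant a lost call and stronger a gained one. A count of calls that rose or fell by only a small ratio was labelled the same. That label also covered fits in which DESeq2 withheld the adjusted p, and Nox4 shares that moved by less than the SD of their group. Among members without a call, 23 of 451 values changed sign, in 6 results: Cyba in Aged Bleo against Aged Sham (-0.24 to 0.20) and against Young Bleo (-0.15 to 0.18), Nox4 in Aged Bleo against Young Bleo (-0.47 to 0.24), and the aged minus young response of Cybb (-1.88 to 0.42), Ncf1 (-0.68 to 0.50) and Ncf4 (-2.44 to 0.23). No paired analysis was possible because the replicate numbers in the labels do not repeat between groups. Nox4 in Aged Sham against Young Sham was not called by edgeR (log2 fold change 1.44), with TMM size factors (1.43), after the filter on low counts (1.45), by limma voom (1.48) or on log2(FPKM + 0.1) and log2(FPKM + 1), where the differences were 0.87 and 0.21. Without single libraries it ranged from 1.33 to 1.69, and the call stood only without Aged Bleo replicates 1, 2 or 3 or Young Sham replicate 25. Nox4 in Aged Bleo against Aged Sham was not called on the 2 FPKM scales (-1.23 and -0.27) and ranged from -2.61 to -1.90 without single libraries, always with a call. Nox4 in Aged Bleo against Young Sham ranged from -1.17 to -0.46 without single libraries.

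Of the 4 phagocyte subunits, 1 was called in Aged Sham against Young Sham, but 0 by edgeR, by limma voom, on both FPKM scales and with only the 2 groups compared, and 0 to 1 without single libraries. In Young Bleo against Young Sham 3 were called, but 0 on log2(FPKM + 1). In Aged Bleo against Aged Sham 2 were called, but 0 by edgeR, by limma voom and on both FPKM scales, 1 after the filter on low counts, and 0 to 3 without single libraries. The values on log2(FPKM + 1) are small by construction, as Nox4 and Ncf4 lie under or near 1 FPKM, and the cause of the other losses was not tested. The difference of the responses was not run with only the groups compared, since it uses all 4. With 3 Aged Sham libraries and low counts of Nox4, Ncf1 and Ncf4, small differences may have been missed.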
